A study of Mus musculus with 2 samples.

Results

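The 36 genes described here encode proteins that take up, activate, oxidise or release fatty acids. They were selected by gene symbol, and all 36 had a row among the 19294 genes of the count table. Their mRNA was sequenced from mouse intestinal organoids (mIOs), epithelial cultures grown in Matrigel from jejunal crypts with EGF, Noggin and R-spondin. There was 1 control culture and 1 culture given dextran sulfate sodium (DSS), a sulfated polysaccharide that injures the gut epithelium, both sampled at day 4. The mice behind both cultures carried Lgr5-EGFP-IRES-creERT2, so that the Lgr5 locus drives EGFP and an inducible Cre. Whether each RNA came from pooled wells is not given in the sources used here, nor are the DSS concentration of the sequenced culture and the age of the animals.

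Fatty acids are first coupled to coenzyme A, and the acyl-CoA can then be stored in lipid droplets, exported in chylomicrons or burned. In mitochondria, long chains enter through the carnitine shuttle and are shortened by repeated rounds of dehydrogenation, hydration, a further dehydrogenation and thiolysis. Peroxisomes run the same reactions with their own enzymes on very long and branched chains, and their first step passes electrons to oxygen and releases hydrogen peroxide. Nuclear receptors of the PPAR family raise the genes of both routes, and in the gut these pathways are best known from enterocytes, the absorptive cells of the villus.

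Depth was 65493032 counts for the control and 59746968 counts for DSS. Values are given as scaled CPM (counts relative to the library total after TMM scaling, which removes the effect of a few abundant genes on all others) and as the log2 ratio of scaled CPM, DSS over control. With 1 library per condition there was no replicate check and no test, and the 95% intervals are exact Clopper-Pearson intervals that cover counting error only. A gene is said to rise or fall here when it differed at least 2-fold. All 36 members passed the minimum of 10 counts in at least one library, and the lowest member count was 214.

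Of the 36 members, 7 rose and 1 fell. Over the 17235 genes tested, 19.3% rose, so the 19.4% of members that rose was close to the share of all genes. The share that fell was 2.78% of members against 20.2% of all genes. A log2 ratio above 0 was found for 27 members, or 75.0%, against 48% of all genes. At a 4-fold line 2 members rose and 0 fell, against 7.87% and 6.54% of all genes. The median log2 ratio of the members was 0.32 and that of all genes tested was -0.06. The group was not uniform, and the mitochondrial and peroxisomal steps held different values.

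**Figure D1:**
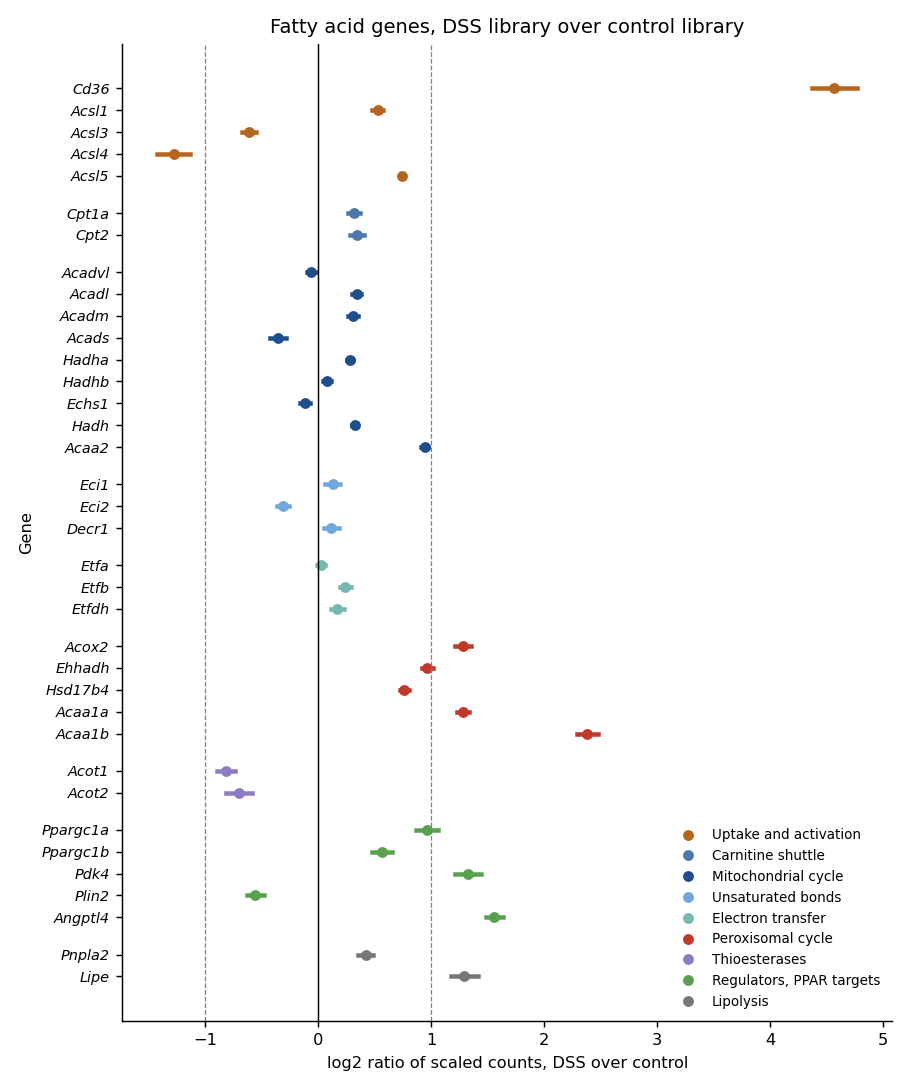
Log2 ratio of scaled counts, DSS over control, for each of the 36 genes, grouped by step. Points are the ratios, bars the 95% counting intervals, the solid line 0 and the dashed lines a 2-fold difference. The mitochondrial genes lie within the dashed lines, and Cd36 lies farthest to the right at 4.57.

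The label of the cultures names intestinal stem cells, whereas the libraries held markers of the whole epithelium. Of 12 enterocyte markers, all 12 rose, and their summed level was 5029 CPM in control mIOs and 34754 CPM in DSS mIOs, with Sis the most abundant in the second. All 8 stem cell markers fell, from 1709 CPM to 232 CPM together, with Slc12a2 most abundant in control and Smoc2 in DSS mIOs. Of 8 proliferation markers 7 fell, and the list went from 1374 CPM to 244 CPM, with Mki67 most abundant in control and Pcna in DSS mIOs. All 7 goblet cell markers rose, from 863 to 11692 CPM together, with Fcgbp most abundant. All 7 enteroendocrine markers rose as well, from 835 to 4283 CPM, most of it Chgb. Of 7 Paneth cell markers 5 fell, and their sum went from 1073 to 335 CPM, with Defa24 most abundant in the control and Lyz1 and Itln1 in DSS mIOs. Of the 5 tuft cell markers with a value 3 fell, and the list summed to 9.04 and 4.46 CPM. Of 6 general epithelial markers 1 rose, Krt19, and the list summed to 5740 and 8420 CPM with Krt8 most abundant. By RT-PCR in DSS-treated mIOs, the paper reports a decrease of Lgr5 and Lyz, with Vil1, Muc2 and Chga at similar levels. In the libraries, Vil1, Muc2 and Chga had log2 ratios of 1.25, 4.98 and 2.60, so the measurements differ for these genes. Lgr5 and Lyz1 were at -3.78 and -1.06. More cells of a type and more RNA per cell cannot be told apart in bulk libraries, and the part of the marker shifts in the results below was not tested.

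Many non-epithelial markers had no value. Only genes with at least 1 count in both libraries are listed, so a missing value does not show absence from both. Of 7 fibroblast markers 5 had no value here, and the other two, Col1a1 and Pdgfra, summed to 0.447 CPM without and 0.567 CPM with DSS. Of 5 endothelial markers 3 had no value, and Pecam1 and Tek summed to 0.335 and 2.78 CPM, with 12 control counts each and 55 and 97 counts with DSS, so that both rose. Of 9 macrophage markers 4 had no value, Adgre1, C1qb, C1qc and Ptprc, and the others summed to 14.2 and 25.2 CPM, most of it Cd68 and Itgam. Of these 5 genes 3 rose, C1qa from 3 to 32 counts (log2 ratio 3.80, interval 2.13 to 6.16), Csf1r from 9 to 21 counts and Itgam from 375 to 631 counts. For adipocytes, 6 of 8 markers had no value, Adipoq, Lep and Plin1 among them. The adipocyte sum of 16.6 CPM without and 65.6 CPM with DSS was nearly all Cidec, a lipid droplet protein that other cells also make. Of the 2 markers with a value, Cidec rose and Plin4 fell, from 37 to 12 counts (log2 ratio -1.24, interval -2.31 to -0.26). Of 5 muscle markers only Acta1 had a value, at 85.7 and 177 CPM, and its sequence is close to that of other actins.

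Cd36 (NCBI gene identifier 12491) encodes a membrane receptor that takes up long-chain fatty acids. It had 214 counts in the control and 3876 counts in the DSS library, or 2.99 and 70.9 CPM. This was the largest difference among the members, a 23.7-fold higher level with DSS and a log2 ratio of 4.57 (4.37 to 4.77). Cd36 is also made by adipocytes, macrophages and endothelial cells, whose marker values are given above. Its listed promoter lies on the minus strand of chr5:17835897-17836146 in GRCm38.p6 (RefSeq). The 250 bases before the start are shown because Cd36 had the largest ratio. The capitals mark an inexact match to the DR1 element, which is described with the other matches further on.

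Cd36: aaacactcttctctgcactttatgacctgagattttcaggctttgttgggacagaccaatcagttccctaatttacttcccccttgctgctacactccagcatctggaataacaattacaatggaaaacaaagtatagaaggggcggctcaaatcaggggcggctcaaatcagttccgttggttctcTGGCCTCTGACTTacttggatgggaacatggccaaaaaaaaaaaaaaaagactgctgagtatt

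The long-chain acyl-CoA synthetases, which activate fatty acids, did not move as a family. Acsl5, the isoform of the enterocyte, had 59881 control counts and 76379 DSS counts, for a log2 ratio of 0.74 (0.72 to 0.76). Acsl1 had 6416 and 7051 counts, at 0.52 (0.48 to 0.57). Both lay above 0 and under the 2-fold line. Acsl3, which works at lipid droplets, had 6445 and 3223 counts, and its log2 ratio was -0.61 (-0.67 to -0.55). Acsl4, which prefers arachidonic acid and supplies the phospholipids that are oxidised in ferroptosis, fell from 1615 to 509 counts, or from 22.6 to 9.31 CPM. Its log2 ratio of -1.28 (-1.42 to -1.13) was the lowest of all members. The log2 ratio of Acsl5 exceeded that of Acsl4 by 2.02 (counting interval 1.87 to 2.16), and that of Acsl1 exceeded that of Acsl3 by 1.14 (1.06 to 1.21).

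Levels of different genes were compared roughly as CPM per kb of the longest coding transcript, whichever isoform was expressed. On this scale the synthetase family summed to 248 without and 381 with DSS. Acsl5 held 79.6% of this level in control and 86.4% in DSS mIOs. Acsl3 went from 9.2% to 3.92% and Acsl4 from 1.73% to 0.463%. The fifth isoform, Acsl6, is not among the 36 genes, and its 168 and 682 counts made up 0.163% and 0.564%. The family was thus dominated by Acsl5 in both libraries.

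The carnitine shuttle carries activated long chains into mitochondria. Cpt1a, its regulated outer-membrane enzyme, had 6016 control counts and 5730 DSS counts, or 84.1 and 105 CPM, for a log2 ratio of 0.32 (0.27 to 0.37). Cpt2, the inner-membrane enzyme, had 4586 and 4443 counts, or 64.1 and 81.3 CPM, at 0.34 (0.28 to 0.40). The values of both genes were alike and far from the 2-fold line.

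The acyl-CoA dehydrogenases start each round in mitochondria and differ in the chain length they prefer. The log2 ratio was -0.06 for Acadvl (very long chains), 0.34 for Acadl (long), 0.31 for Acadm (medium) and -0.36 for Acads (short). Acads had 4637 and 2767 counts, or 64.8 and 50.6 CPM, and was the lowest of the mitochondrial genes. Hadha and Hadhb encode the subunits of the trifunctional protein of the inner membrane and are direct neighbours on their chromosome. Hadha had 22829 and 21246 counts, at 0.28 (0.26 to 0.31), and Hadhb had 15528 and 12491 counts, at 0.07 (0.04 to 0.11). The hydratase Echs1 was at -0.12 and the short-chain dehydrogenase Hadh at 0.32. Hadh had the highest length-scaled level of all members in both libraries, with 293 CPM per kb in control and 367 in DSS mIOs, followed by Acsl5 with 197 and 329.

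Acaa2, a thiolase of the mitochondrial matrix that cleaves shorter chains than the trifunctional protein does, was the exception at the high end. It had 11964 control counts and 17557 DSS counts, or 167 and 321 CPM. The log2 ratio of 0.94 (0.91 to 0.98), a 1.92-fold higher level, was just short of the 2-fold line and well above those of the other 16 mitochondrial genes, of which the next highest was Cpt2.

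Unsaturated chains need auxiliary enzymes. Eci1 was at 0.13, Decr1 at 0.12 and Eci2, an isomerase found in mitochondria and peroxisomes, at -0.31 (-0.37 to -0.26). The flavoprotein chain that takes electrons from the dehydrogenases lay close to 0, with Etfa at 0.02, Etfb at 0.24 and Etfdh at 0.17. The interval of Etfa, from -0.02 to 0.06, was the only one of the 36 that held 0.

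Over all 17 genes of the mitochondrial steps, none rose or fell, against 19.3% and 20.2% of all genes tested. With upper quartile factors, Acaa2 passed the line at 1.03. Their median log2 ratio was 0.17, with a range from -0.36 to 0.94, and 13 lay above 0. This direction depended on the scaling, because scaling by the library totals gave a median of -0.086 with 7 genes above 0. The nuclear genes of oxidative phosphorylation gave a similar picture, as none of 65 rose or fell and their median was 0.07. They ran from -0.51 for Ndufb11 and -0.48 for Ndufs8 to 0.57 for Ndufb7 and 0.61 for Ndufb3.

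The 5 genes of the peroxisomal steps all lay higher in the DSS library. Acox2, the oxidase for branched chains and bile acid side chains, rose from 2735 to 5078 counts, or from 38.2 to 92.9 CPM, a log2 ratio of 1.28 (1.21 to 1.35). Ehhadh, the bifunctional hydratase and dehydrogenase, had 4924 and 7350 counts, at 0.97 (0.91 to 1.02), a 1.95-fold higher level that fell short of the line. Hsd17b4, the second bifunctional enzyme, which serves very long and branched chains, had 9332 and 12078 counts, at 0.76 (0.72 to 0.80).

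The peroxisomal thiolases Acaa1a and Acaa1b both rose. Acaa1a had 4163 and 7726 counts, or 58.2 and 141 CPM, at 1.28 (1.23 to 1.34). Acaa1b had 1285 and 5121 counts, or 18.0 and 93.7 CPM, at 2.38 (2.29 to 2.47), the second largest ratio among the members after Cd36. The share of Acaa1b in the length-scaled level of the pair was 24.4% without and 40.9% with DSS. The log2 ratio of Acaa1b exceeded that of Acaa1a by 1.10 (0.999 to 1.21), but the genes are near copies. In GENCODE vM21 transcripts, their longest reading frames of 1275 bases were 96.5% identical, and 24.1% of all windows of 100 bases in Acaa1a were found unchanged in Acaa1b. How reads that match both were counted is not given in the sources used here, so the separate values are uncertain. The first 120 coding bases are shown, with capitals at the 4 positions where the genes differ.

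Acaa1a: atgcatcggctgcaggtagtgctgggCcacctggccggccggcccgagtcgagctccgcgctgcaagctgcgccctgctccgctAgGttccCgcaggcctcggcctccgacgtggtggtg
Acaa1b: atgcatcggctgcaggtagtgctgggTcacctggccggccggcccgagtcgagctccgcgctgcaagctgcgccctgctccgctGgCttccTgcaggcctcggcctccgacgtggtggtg

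Of the 5 peroxisomal genes 3 rose, or 60.0% against 19.3% of all genes tested, and the summed level of the 5 was 314 CPM without and 683 CPM with DSS. The 17 mitochondrial genes summed to 2601 and 3056 CPM. The median log2 ratio of the peroxisomal steps was 1.28, which was 1.11 above that of the mitochondrial steps, and this difference does not depend on the scaling factor. The groups overlapped by a single gene on each side, as Acaa2 lay above Hsd17b4. Without the thiolases Acaa1a and Acaa1b, the peroxisomal median was 0.97, and it lay 0.80 above the mitochondrial one.

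The pairs below set the routes side by side by reaction. Their signs follow from the near lack of overlap between the groups, and they describe the same difference again. In the first oxidation, the log2 ratio of Acox2 exceeded that of Acadvl by 1.34. These enzymes serve different chains, branched and very long, so the pair does not stand for the whole step. For the bifunctional enzymes, Ehhadh exceeded Hadha by 0.68, and Hsd17b4 exceeded Hadh by 0.44. For the thiolases, Acaa1a exceeded Hadhb by 1.21 and Acaa2 by 0.34. The pairs were chosen after the values were known.

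**Figure D2:**
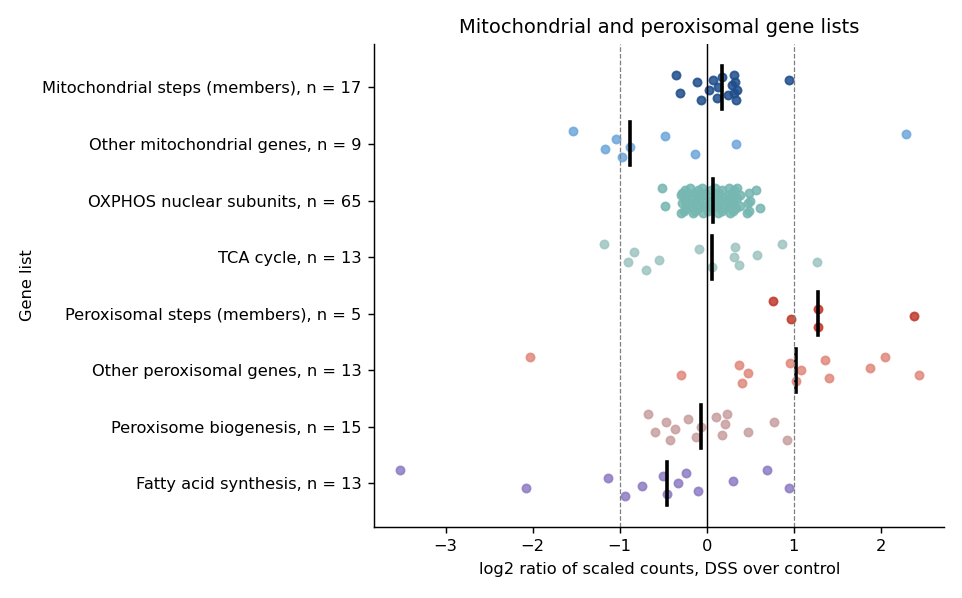
Log2 ratio of scaled counts, DSS over control, for the genes of 8 lists, each point a gene and each black bar the list's median. Dashed lines mark a 2-fold difference. The peroxisomal steps, with a median of 1.28, lie to the right of the mitochondrial steps at 0.17 and of the peroxisome biogenesis genes at -0.07.

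Further genes listed with either route, outside the 36, were taken from a written list. Of 13 other peroxisomal genes with a value, 7 rose and 1 fell, with a median of 1.02. These were 53.8% and 7.69%, against 19.3% and 20.2% of all genes tested. Scp2, which encodes a thiolase and a lipid carrier, rose from 9932 to 20088 counts, at 1.40, and Phyh, of the oxidation of phytanic acid, rose from 7536 to 14725 counts, at 1.35. Pecr, a peroxisomal enoyl-CoA reductase, fell from 1393 to 260 counts, at -2.03. Scp2 and Phyh were named after their values were seen.

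The 9 other mitochondrial genes had a median of -0.88, with 1 that rose and 3 that fell. These were 11.1% and 33.3%, against 19.3% and 20.2% of all genes tested. Hsd17b10, a dehydrogenase of branched short chains that also serves mitochondrial tRNA processing, fell from 6378 to 1673 counts, at -1.54. Acat1, the thiolase of acetoacetyl-CoA, was at -1.17 and Mcat, of mitochondrial fatty acid synthesis, at -1.04. Mcat is thus not a gene of oxidation, and Hsd17b10 has a further role, but both are counted in the median and shares of this list. The median of this list is therefore not a measure of fatty acid oxidation alone. Acad11, an acyl-CoA dehydrogenase listed here with the mitochondrial genes, rose from 2282 to 8505 counts, at 2.29. Acat1, Mcat and Acad11 were named after their values were seen. Joining these lists, Mcat included, with the members gave a peroxisomal median 0.96 above the mitochondrial one, with the same limit.

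The peroxins, which build the organelle and import its enzymes, did not share the values of the enzymes. None of 15 rose or fell, against 19.3% and 20.2% of all genes tested, and their median was -0.07. They ran from -0.68 for Pex10 and -0.47 for Pex26 to 0.48 for Pex19, 0.77 for Pex16 and 0.92 for Pex11a, a gene of peroxisome division that PPARα is known to raise.

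The acyl-CoA thioesterases Acot1 and Acot2, which split acyl-CoA back to free fatty acids in the cytosol and in mitochondria, lay lower in the DSS library. Acot1 had 4175 and 1816 counts, or 58.3 and 33.2 CPM, at -0.81 (-0.89 to -0.73). Acot2 had 2034 and 955 counts, or 28.4 and 17.5 CPM, at -0.70 (-0.81 to -0.59). Neither passed the 2-fold line, although Acot1 did so at -1.07 with total counts only, and the difference between them, -0.11, had a counting interval from -0.25 to 0.03. Acot1 and Acot2 are direct neighbours and identical at 1183 of 1239 aligned coding bases, and 30.9% of the windows of 100 bases in Acot1 are shared, so reads may have been split between them. The next coding gene beyond Acot1 is the peroxisomal thioesterase Acot4, which rose from 425 to 1195 counts, at 1.88, and shares 0.775% of such windows with Acot1. Neighbouring genes of this family thus held values on opposite sides of 0. Acot4 was named after its value was seen.

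**Figure D3:**
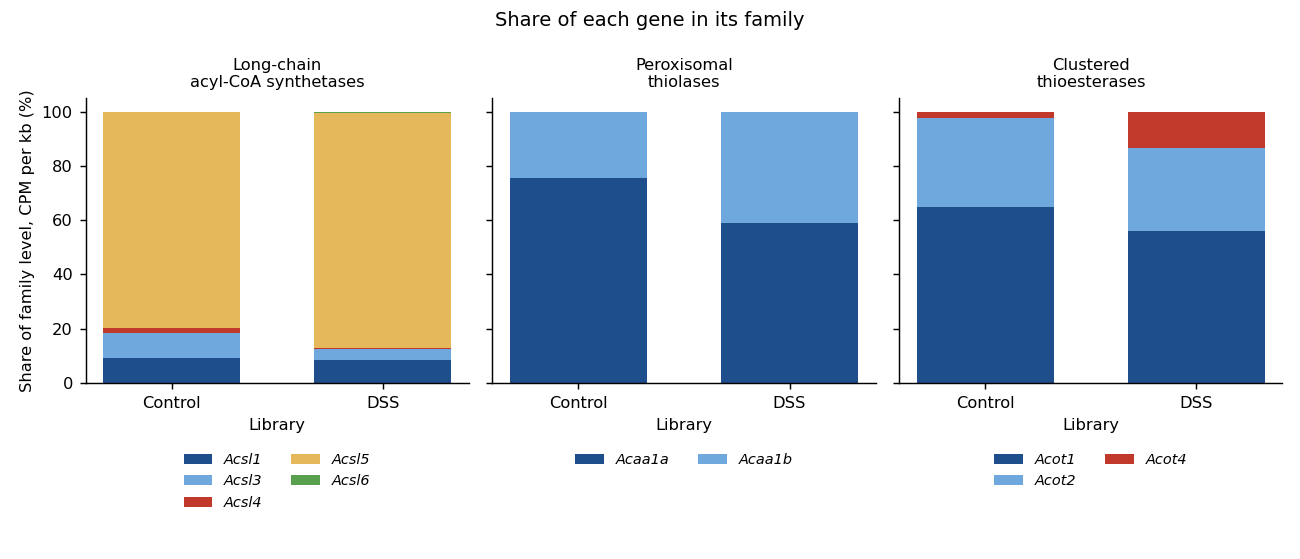
Share of each gene in the summed level of its family, in CPM per kb of transcript, for the control and the DSS library, with bars that sum to 100%. Acsl5 holds most of the synthetase level in both libraries, and Acaa1b goes from 24.4% to 40.9% of the thiolase level.

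Ppargc1a and Ppargc1b encode coactivators that raise mitochondrial genes with PPAR and ERR receptors. Ppargc1a had 1520 and 2263 counts, or 21.2 and 41.4 CPM, at 0.96 (0.87 to 1.06). Ppargc1b had 2093 and 2364 counts, or 29.2 and 43.2 CPM, at 0.56 (0.48 to 0.65). Both were above 0 without passing the 2-fold line.

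Pdk4, Plin2 and Angptl4 are known targets of the PPARs. Pdk4, a kinase that keeps pyruvate out of the citrate cycle when fat is burned, rose from 929 to 1777 counts, or from 13.0 to 32.5 CPM, at 1.32 (1.21 to 1.44). Angptl4, a secreted inhibitor of lipoprotein lipase, rose from 1960 to 4409 counts, or from 27.4 to 80.6 CPM, at 1.56 (1.48 to 1.64). Plin2, which coats lipid droplets, had 4519 and 2348 counts, or 63.1 and 42.9 CPM, at -0.56 (-0.63 to -0.48). The targets therefore did not lie on the same side of 0.

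The receptors themselves differed little, with Ppara at 0.43, Ppard at 0.61, Pparg at 0.25 and the partner Rxra at 0.53. Of 13 regulators outside the 36 genes with a value, these receptors included, 3 rose and 1 fell. The 23.1% that rose was close to the 19.3% of all genes tested, and 7.69% fell, against 20.2%. Creb3l3, a membrane-bound transcription factor of lipid metabolism in liver and small intestine, rose from 1471 to 18787 counts, or from 20.6 to 344 CPM, at 4.06. Hnf4g, a nuclear receptor of enterocytes, rose from 5005 to 18020 counts, at 2.24, whereas its relative Hnf4a was at 0.05. Acacb, which makes the malonyl-CoA that blocks Cpt1a, fell from 311 to 60 counts, at -1.99. The receptors and the Hnf4 genes were named after their values were seen.

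Promoters of 31 members were listed in RefSeq (GRCm38.p6), and the 250 bases before each start were searched on both strands for the DR1 element, 2 copies of AGGTCA in the same direction with 1 base between them, which PPAR binds with RXR, allowing up to 2 mismatches. Such a match was found in 4 of 34 promoters of the members and in 3.24% of the 32851 promoters of the table. The matches are shown with 8 bases on each side, on the strand of the gene and with the match in capitals, because the 4 genes had very different ratios.

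Cd36: tggttctcTGGCCTCTGACTTacttggat
Echs1: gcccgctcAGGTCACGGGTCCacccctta
Etfa: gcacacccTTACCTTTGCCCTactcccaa
Plin2: agctttcaGGACCCCTGACCTaagtcaga

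The match began 63 bases before the start in Cd36, at chr5:17835939-17835967 with its flanks, and 83 bases before it in Echs1, at chr7:140116484-140116512. It began 77 bases before the start in Etfa, at chr9:55512300-55512328, and 225 bases before it in Plin2, at chr4:86670264-86670292. All 4 genes lie on the minus strand. Each match had 2 mismatches, and it lay on the strand of the gene in Echs1 and on the opposite strand in Cd36, Etfa and Plin2. Beside these matches stood log2 ratios of 4.57 for Cd36, -0.12 for Echs1, 0.02 for Etfa and -0.56 for Plin2. A match describes letters and not a bound site.

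The lipases release fatty acids from droplets. Pnpla2, the adipose triglyceride lipase, had 3253 and 3321 counts, or 45.5 and 60.7 CPM, at 0.42 (0.35 to 0.49). Lipe, the hormone-sensitive lipase, rose from 884 to 1656 counts, or from 12.4 to 30.3 CPM, at 1.29 (1.18 to 1.41). On the length scale Pnpla2 remained the higher of the pair, with 17.3 and 23.1 CPM per kb against 3.33 and 8.16 for Lipe. Among 10 other genes of lipolysis and lipid droplets, 4 rose and 2 fell, or 40% and 20%, against 19.3% and 20.2% of all genes tested. Ces1g, an esterase of lipid metabolism, rose from 1280 to 18217 counts, at 4.22, the largest ratio of the 59 other pathway genes with a value.

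Of those 59 genes in all, 22 rose and 7 fell, or 37.3% and 11.9%, against 19.3% and 20.2% of all genes tested, and their median was 0.50. After Ces1g and Creb3l3 the next highest ratio was that of Fabp2, the intestinal fatty acid binding protein, which rose from 7240 to 35979 counts, at 2.70. Apart from the steps already described, 4 of 8 other genes of uptake and activation and 3 of 6 other genes of the carnitine system rose. The latter were Crat at 1.62, Crot at 1.31 and Slc22a5 at 1.30, the carnitine acyltransferases for short and medium chains and the carnitine importer of the cell membrane, which were named after their values were seen.

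**Figure D4:**
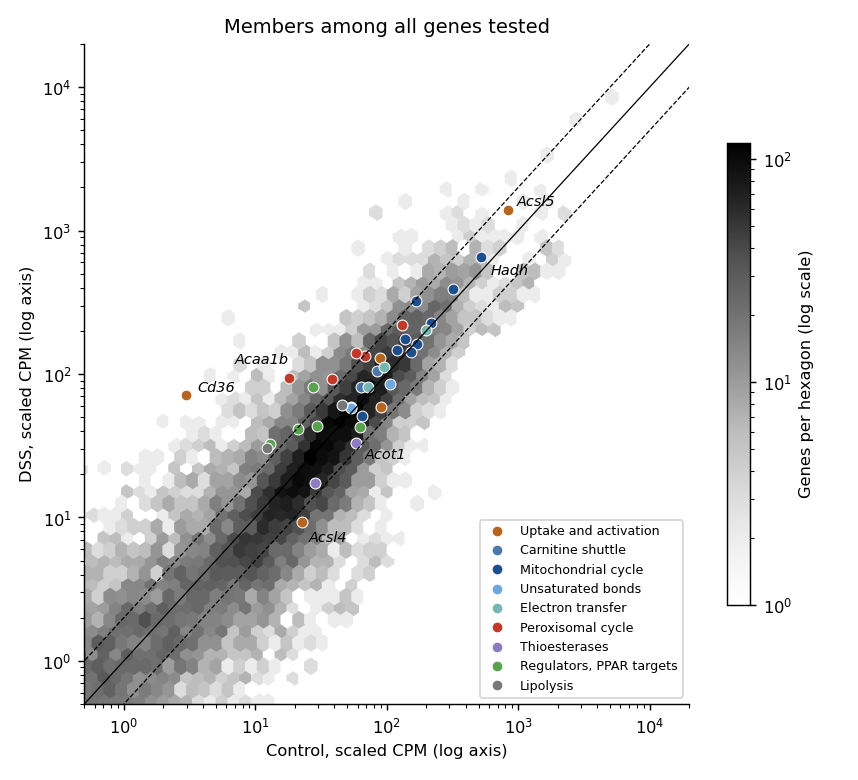
Scaled CPM in the control library (horizontal, log axis) and the DSS library (vertical, log axis) for the genes tested, as grey hexagons within the limits of the axes, with the 36 members as coloured points. The solid line marks equal levels and the dashed lines a 2-fold difference. Most members lie between the dashed lines, and Cd36 at 2.99 and 70.9 CPM lies farthest from them.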

How the data were processed

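Deposited values were unnormalised read counts by gene, with NCBI gene identifiers, from a stranded mRNA library kit. HISAT2 and StringTie are named in the submitters' processing notes, and the genome build and the counting rule are not given in the sources used here. The single-sample files, named as FPKM, held the same counts. The table lists genes with at least 1 count in both libraries. Counts were scaled with TMM factors (edgeR 4.0.16, R 4.3.3), 1.09 for the control and 0.915 for the DSS library. Ratios, intervals and lists were computed in Python 3.11.15 (scipy 1.17.1), and pair differences carry a 95% normal interval on log counts. Lengths were those of the longest coding transcript in GENCODE vM21, found for all 36 members. No test was possible with 1 library per group.

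Members, lists and tests were chosen with earlier results of these data known. All members were named. From other lists, the 3 highest and 3 lowest genes that reached 50 counts in either library could be named, and marker lists were given by their counts and sums. A few genes of these lists enter the counts and medians but are not reported here by name. In simulated counts of the DSS and control comparison (19294 genes), 200 genes with high expected counts were given a log2 ratio of 2, up or down. Of these, 100% passed the 2-fold line, which their high counts made near certain. The line was also passed by 243 of 16902 unchanged genes, which included genes of low count, and 95.7% of intervals held the true value. Variation between replicates could not be measured with 1 library per group, so these figures are no error rate for the calls. Alternatives were other scaling factors (DESeq2 1.42.0 size factors among them), a prior count, count minimums, thinning, a 4-fold line, the mean, the place of Eci2 and the removal of near-identical genes.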

Additional observations from a re-analysis of the deposited data

How the results depend on the processing

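No paired analysis was possible because each condition had 1 library, and leaving out a replicate was not possible for the same reason. With total counts only, which shift every log2 ratio by -0.26, the median of all genes was -0.31, the medians were 0.065 for all members, -0.086 for the mitochondrial and 1.02 for the peroxisomal steps, and 2 members fell, Acsl4 and Acot1. The members Hadhb, Eci1, Decr1, Etfa, Etfb and Etfdh then changed sign, and of all genes tested 15.4% rose and 26.2% fell, against 19.3% and 20.2%. With upper quartile factors the medians were 0.41, 0.26 and 1.37, Acadvl changed sign, and 10 members rose (27.8%, against 21.2% of all genes), Acaa2, Ehhadh and Ppargc1a among them. Without Acot1, Acot2, Acaa1a and Acaa1b the peroxisomal median was 0.97 and its distance from the mitochondrial one 0.80. At a 4-fold line, 2 members rose and 0 fell. The mean of all members was 0.48. With Eci2 counted as peroxisomal, that median was 1.12 and the distance 0.92. Added after the data were seen, centring on the median of all genes gave 0.38 for all members and 1.34 for the peroxisomal steps. Adding the other listed genes of both routes, with Mcat among the mitochondrial ones, gave a peroxisomal median of 1.05 and a distance of 0.96. DESeq2 size factors, a prior count of 2 and thinning changed no median beyond its counting interval. Other count minimums could not remove a member, since the lowest member count was 214, and are no check. Of the other 48 alternative values for these summaries, 30 were medians within their counting range or counts within 1.5 times the reported one, among them 9 members that rose after centring (25.0%, against 20.5% of all genes) and 5 without the near-identical genes. For the single genes, 66 values moved beyond their counting interval and 78 did not, and no member past the 2-fold line changed sign under these scalings. Counting intervals of the members had a median width of 0.12 and were 0.40 at the widest, and variation between replicates could not be measured.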

Other observations

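Fatty acid synthesis, the opposite of the pathways described above, was not set apart by its share of genes that fell. Of 13 genes with a value, 0 rose, 3 fell and 10 lay below 0, with a median log2 ratio of -0.46. The 23.1% that fell was close to the 20.2% of all genes tested. Of all genes tested 19.3% rose, and 48% lay above 0, against 23.1% of this list. Fads1 and Fads2, the desaturases that make long polyunsaturated chains, fell from 18636 to 1237 counts, at -3.52, and from 18479 to 3358 counts, at -2.07. Elovl5, which elongates such chains, fell from 8329 to 2896 counts, at -1.14. Elovl6, which elongates saturated chains, was at 0.95, the malic enzyme Me1 at 0.69 and Elovl1 at 0.30, the highest of the list.

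The citrate cycle, which burns the acetyl-CoA that mitochondrial oxidation makes, had a median of 0.06 over 13 genes, with 1 that rose and 1 that fell. Each was 7.69% of the list, against 19.3% and 20.2% of all genes tested. Ogdh, of the oxoglutarate dehydrogenase complex, rose from 23251 to 42897 counts, at 1.27, followed by Mdh2 at 0.86 and Dlst at 0.58. Idh3a, the catalytic subunit of the NAD-dependent isocitrate dehydrogenase, fell from 13029 to 4393 counts, at -1.18, and next to it lay Suclg2 at -0.90 and Idh3g at -0.83. The cause of these differences was not tested.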
